A study of Mus musculus with 221 samples.

Results

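Malat1, Neat1, Gas5 and the small nucleolar RNA host genes Snhg1, Snhg5, Snhg6, Snhg8 and Snhg12 were followed through long-read libraries of single mouse cells. These 8 genes were chosen by symbol, and their 465 annotated transcripts are among 278369 transcripts of 78001 genes in the deposited tables. Each library is the cDNA of 1 sorted cell, made by the Smart-seq2 protocol and read again on a nanopore instrument. The cells came from embryos of crosses between C57BL/6JOlaHsd mice carrying the GFI1-GFP and RUNX1B-RFP reporters and Hsd:ICR CD-1 females, and none received a treatment. Hemogenic endothelium (HE), the endothelium from which blood cells emerge, was sorted from the aorta-gonad-mesonephros region (AGM) at E9.5 and E10.5 as RUNX1+, KIT-, CDH5+, GFI1+/-, CD41-, CD45- cells. Yolk sac (YS) HE was sorted at E9, E9.5 and E10.5 as RUNX1+, KIT+, GFI1+/-, CD31+, CD41-, CD45- cells, so the 2 tissues also differ in the KIT gate.

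The labels place each cell in 1 of 9 clusters. HE-AGM has an early and a late cluster with 29 and 20 cells used here, HE-YSA has 23 and 29, and HE-YSP has 25 and 24. Cluster AGM_5, labelled HE-Hb, held 21 cells. YS_p1, early YS hematopoietic progenitors labelled lympho-myeloid (LMP) skewed, held 17 cells, and YS_p2, labelled erythro-myeloid (EMP) skewed, held 20. By the library names, HE-YSA cells came mostly from a Gfi1 sort. Early HE-YSP, YS_p1 and YS_p2 cells came mostly from a Runx1 sort, and late HE-YSP cells from both. Sort and cluster thus cannot be told apart for most of these cells, and the part of the sort in ratios between them was not tested. No embryo is named for a cell, so each cluster counts as 1 sample, no test was possible, and intervals cover counting error only.

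Of 221 cells, 208 had at least 17595 estimated counts and were used. Their totals ran from 18131 to 125339, with a median of 59311 for HE-AGM cells, 34484 for HE-YSA and 33297 for HE-YSP. AGM and YS cDNA came from differently named library sets. AGM cells carry the prefix GL34 apart from 6 early HE-AGM cells, and YS cells carry GL69 apart from 1 early HE-YSA cell, so tissue and cDNA set cannot be told apart for most cells. The names of 2 further HE-YSA libraries, of prefix GL69, give AGM as the tissue, against their labels. Without these 2 and the GL43 cell, every recomputed ratio that uses HE-YSA cells stayed inside its counting interval. The others among the 43 ratios recomputed under alternative settings do not use these cells and could not move. The endothelial list (Cdh5, Pecam1, Kdr, Tek, Emcn) summed to 1132 CPM for HE-AGM, 692.7 for HE-YSA and 754.2 for HE-YSP, and to 193.4 in AGM_5, 187.3 in YS_p1 and 64.2 in YS_p2, where Emcn was at 0. The blood list (Ptprc, Itga2b, Myb, Spi1, Spn) summed to 329.5 CPM for HE-AGM, 102.9 for HE-YSA and 113.0 for HE-YSP. It summed to 468.3 CPM in AGM_5, 207.1 in YS_p1 and 151.5 in YS_p2. Of this list, Ptprc was at 0 in both YS HE populations and at 0.601 CPM in HE-AGM. The HE list (Runx1, Gfi1, Mycn) summed to 378.5 CPM for HE-AGM, 345.3 for HE-YSA and 127.4 for HE-YSP. It summed to 200.7 CPM in AGM_5, 211.7 in YS_p1 and 208.9 in YS_p2, so HE-YSP was lowest on this list, against its label. The level unit, CPM, is a gene's summed estimated count relative to the total count of the summed cells, in parts per 1000000, without a correction for length.

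Malat1 is a very abundant nuclear RNA that gathers in nuclear speckles. Its mature end is a triple helix rather than a poly(A) tail, so oligo-dT priming of Smart-seq2 cDNA depends on A-rich stretches inside the RNA. Neat1 is the scaffold of paraspeckles and is made as a short polyadenylated and a long isoform. Gas5 and the Snhg genes carry small nucleolar RNAs, which guide chemical modification of ribosomal RNA, in their introns. Their spliced exons code for no long protein, are known targets of nonsense-mediated decay in several cases, and often begin with the 5′ terminal oligopyrimidine (TOP) start shared with ribosomal protein genes. In these bulk sums, fewer molecules per cell and a larger total of other RNA cannot be told apart.

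The start regions are given here because a TOP start is what several of these host genes are known to share. The sequences are RefSeq promoters of build GRCm38.p6, read 5′ to 3′ on the gene's strand, from 45 bases before the listed start to 35 bases from it. Capitals mark a run of C followed by at least 5 further C or T bases that begins within 20 bases of the start, and TATAAA or TATATA from 50 to 11 bases before it. Gas5 has a pair of listed starts, of which the downstream is printed. The upstream one, with the window chr1:161034556-161034635, had neither feature. Neat1 and Snhg6 had no entry.
Gas5, chr1:161035121-161035200, plus strand: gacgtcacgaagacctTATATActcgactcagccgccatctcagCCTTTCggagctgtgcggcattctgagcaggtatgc
Snhg8, chr3:123508302-123508381, minus strand: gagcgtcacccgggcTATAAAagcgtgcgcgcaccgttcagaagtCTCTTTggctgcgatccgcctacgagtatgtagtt
Snhg12, chr4:132308633-132308712, plus strand: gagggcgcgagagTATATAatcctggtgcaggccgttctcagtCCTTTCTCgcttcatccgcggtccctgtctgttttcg
Snhg5, chr9:88522863-88522942, minus strand: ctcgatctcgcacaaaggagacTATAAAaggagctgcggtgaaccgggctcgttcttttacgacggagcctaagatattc
Malat1, chr19:5802638-5802717, minus strand: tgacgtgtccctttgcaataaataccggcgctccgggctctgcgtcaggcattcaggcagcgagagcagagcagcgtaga
Snhg1, chr19:8723442-8723521, plus strand: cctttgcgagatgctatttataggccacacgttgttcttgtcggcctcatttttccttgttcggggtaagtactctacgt
In Gas5, Snhg8 and Snhg12 both features were present. The run began 1, 0 and 2 bases before the listed start, and the TATA letters stood 29, 30 and 32 bases before it. Snhg5 had TATAAA 23 bases before the start and no run by this rule, Malat1 had neither, and Snhg1 had TATAAA only on the opposite strand. Of 32851 promoters in the table, 29.4% held the run, 3.37% held TATAAA or TATATA on the gene's strand, 2.09% on the opposite strand, and 1.10% held both features. CACGTG was in 7.15% of these promoters and in none of those printed. A match of letters is a description and not a site.

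Malat1 was recorded in all 208 cells, with 43313 estimated counts in all. Its level was 6790 CPM in early HE-AGM (95% interval 6674 to 6907), and single cells there ran from 2760 through a median of 6808 to 13928 CPM. It was 4307 CPM in late HE-AGM (cells 1655, 4341 and 8289 as lowest, median and highest) and 3058 CPM in AGM_5 (cells 1158, 2500 and 7773). Along this AGM series the medians were successively lower, while the ranges of single cells overlapped.

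In the HE-YSA arm Malat1 stood at 5149 CPM in the early cluster (cells 795, 4320 and 16371), at 4669 CPM in the late cluster (733, 3891 and 15610) and at 3089 CPM in YS_p1 (1183, 2799 and 6514). In the HE-YSP arm it stood at 4924 CPM in the early cluster (1141, 4496 and 9397), at 3060 CPM in the late cluster (1047, 2836 and 6637) and at 2067 CPM in YS_p2 (460, 1571 and 5693). In each arm the later cluster was lower, and YS_p2 was lowest of the 9. The counting intervals of early HE-YSA, early HE-YSP and late HE-YSA overlapped in a chain, as did those of YS_p1, late HE-YSP and AGM_5.

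Malat1 was therefore lower at every labelled step. The log2 ratio of late over early was -0.66 for HE-AGM (95% interval -0.70 to -0.61), -0.14 for HE-YSA (-0.20 to -0.08) and -0.69 for HE-YSP (-0.76 to -0.61). The ratio of the following cluster over late HE was -0.49 (-0.55 to -0.44) for AGM_5, -0.60 (-0.67 to -0.52) for YS_p1 and -0.57 (-0.66 to -0.47) for YS_p2. Each of these 6 ratios was negative in each of the 3 nanopore runs, and none passed 2-fold. The endothelial markers were also lower between late HE and the following clusters, as given above, and their part in the Malat1 values was not tested.

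**Figure D1:**
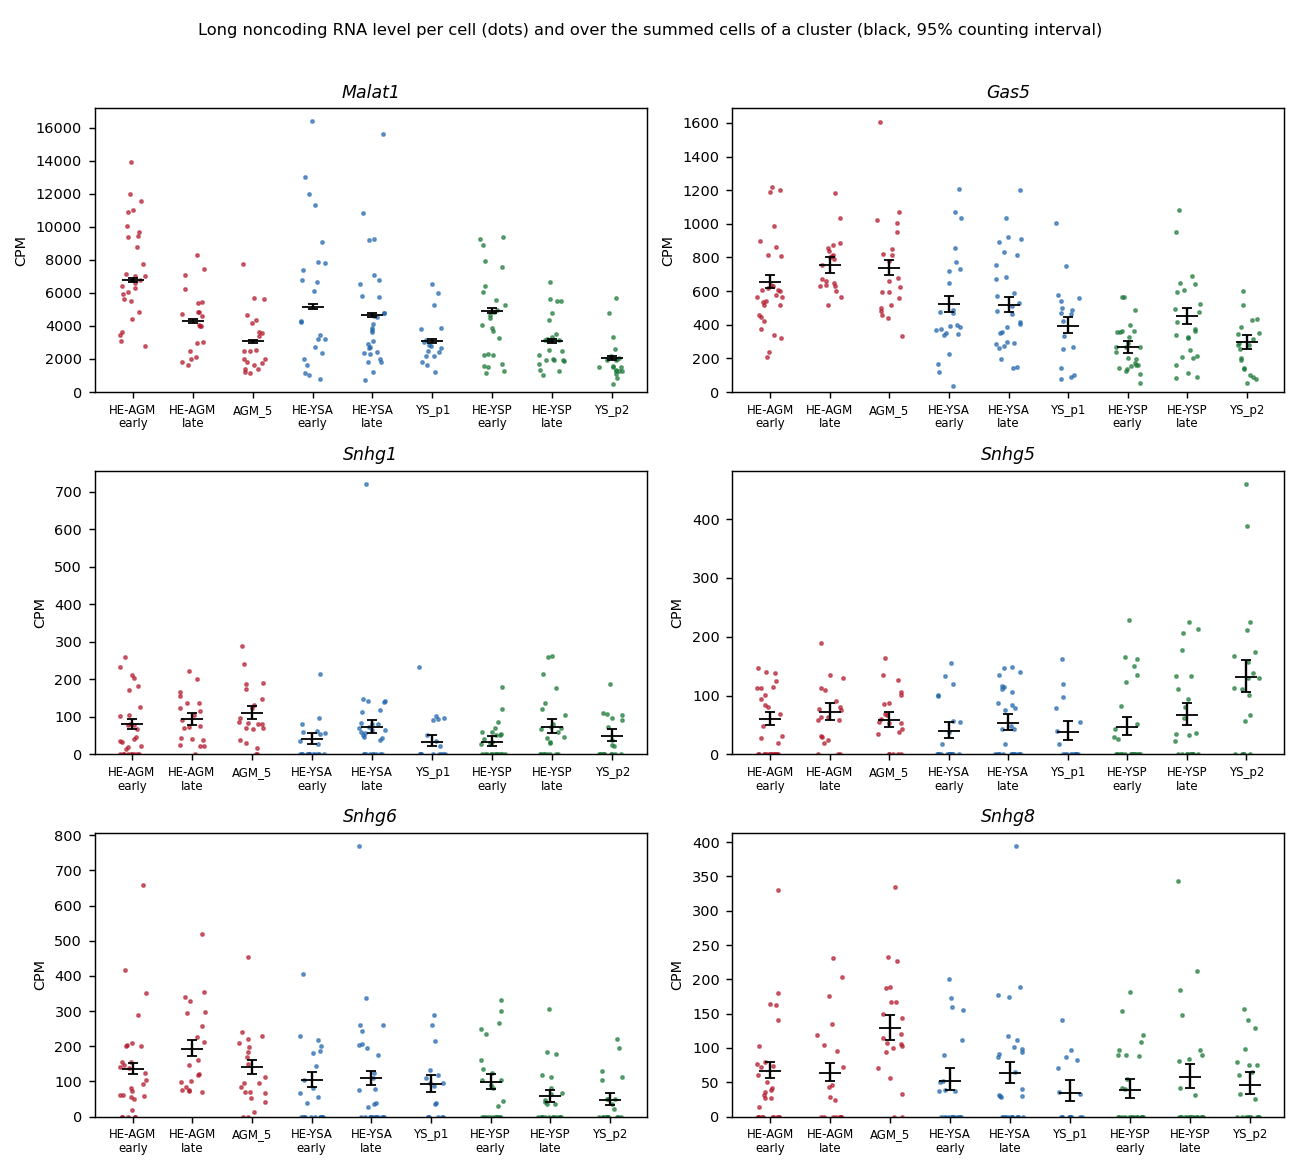
Level in CPM of 6 of the RNAs (one panel each, linear axes from 0) in the 9 clusters, with 1 dot per cell and a black bar with its 95% counting interval for the summed cells. Malat1 is lower in each later cluster of an arm, from 6790 to 3058 CPM in the AGM, while Snhg8 is highest in AGM_5 at 128.5 CPM and Snhg5 in YS_p2 at 131.1 CPM.

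Gas5, a host of several snoRNAs whose level is known to rise when growth or translation stops, was recorded in all 208 cells with 5501 counts. It stood at 657 CPM in early HE-AGM (cells 206, 580 and 1220), at 754 CPM in late HE-AGM (518, 774 and 1182) and at 738 CPM in AGM_5 (332, 657 and 1608). In HE-YSA it was 522 CPM in the early cluster (37, 399 and 1206) and 520 CPM in the late cluster (141, 482 and 1201), and in YS_p1 394 CPM (79, 462 and 1005). In HE-YSP it was 268 CPM in the early cluster (51, 265 and 563) and 450 CPM in the late cluster (85, 370 and 1083), and in YS_p2 296 CPM (53, 279 and 603).

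The 3 AGM clusters were thus the 3 highest for Gas5, and their intervals lay above those of all YS clusters, although single cells overlapped. The lowest of the 20 late HE-AGM cells, at 518 CPM, lay above the median cell of each YS cluster. The AGM steps left Gas5 close to level, with log2 ratios of 0.20 (0.08 to 0.32) for late over early HE-AGM and -0.03 (-0.15 to 0.09) for AGM_5 over late HE-AGM. In HE-YSP the late cluster stood above the early one by 0.75 (0.50 to 0.99), with 0.08, 1.48 and 0.87 in the 3 runs. YS_p1 lay below late HE-YSA by -0.40 (-0.62 to -0.18), and YS_p2 below late HE-YSP by -0.60 (-0.85 to -0.36).

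Between HE populations, every member with a mean of at least 10 CPM was higher in HE-AGM. Over all genes, 56.1% were higher in HE-AGM than in HE-YSA and 57.1% higher than in HE-YSP. The question put by the design is how HE differs between its sites of origin. Malat1 had a log2 ratio of HE-AGM over HE-YSA of 0.24 (0.20 to 0.27), Gas5 of 0.42 (0.31 to 0.53), Snhg1 of 0.55 (0.22 to 0.88), Snhg5 of 0.46 (0.10 to 0.83) and Snhg6 of 0.59 (0.35 to 0.83). Snhg8, at 0.18 (-0.16 to 0.52), was within counting error of no difference. None of these 6 passed 2-fold, where 27.6% of all 8656 genes were more than 2-fold higher in HE-AGM and 13.2% lower. The median over the 6 was 0.44, beside 0.19 over all genes.

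Against HE-YSP the differences were wider. The log2 ratio of HE-AGM over HE-YSP was 0.52 (0.48 to 0.56) for Malat1, 0.97 (0.83 to 1.10) for Gas5, 0.69 (0.34 to 1.05) for Snhg1, 1.04 (0.76 to 1.33) for Snhg6 and 0.46 (0.08 to 0.85) for Snhg8. Snhg5, at 0.19 (-0.16 to 0.55), and Snhg12, at 0.51 (-0.29 to 1.37), were within counting error of no difference. Snhg6 alone passed 2-fold, 1 of 7 members, where 29.1% of 8606 genes were more than 2-fold higher and 14.8% lower, so the members' share was below the background. The 2 comparisons share the HE-AGM cells. HE-YSP lay below HE-YSA for Malat1 by -0.28 (-0.33 to -0.24), for Gas5 by -0.55 (-0.69 to -0.40) and for Snhg6 by -0.45 (-0.78 to -0.13). These populations also differ in the sort named for most cells, as given above. No member passed 2-fold between the YS populations, beside 7.57% of 7729 genes higher in HE-YSP and 8.68% lower.

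For Gas5 the ratio to HE-YSP was 1.05, 0.96 and 0.91 in the 3 runs, and for Malat1 0.41, 0.77 and 0.50. The Gas5 ratio to HE-YSA was 0.71, 0.07 and 0.43 by run, and those of Snhg1 were 0.92, -0.19 and 0.71. The Malat1 ratio to HE-YSA rested on the early clusters, where it was 0.40, since it was -0.12 between the late clusters. It was 0.07 with YS cells of E10.5 alone, and to HE-YSP 0.19. With YS cells of E10.5 alone the member past 2-fold in HE-AGM over HE-YSP was Snhg5, at 1.67, and Snhg6 was at 0.57. With the same cells HE-YSP over HE-YSA was 0.11 for Snhg6 and -0.97 for Snhg5, the opposite sign to the values over all days.

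**Figure D2:**
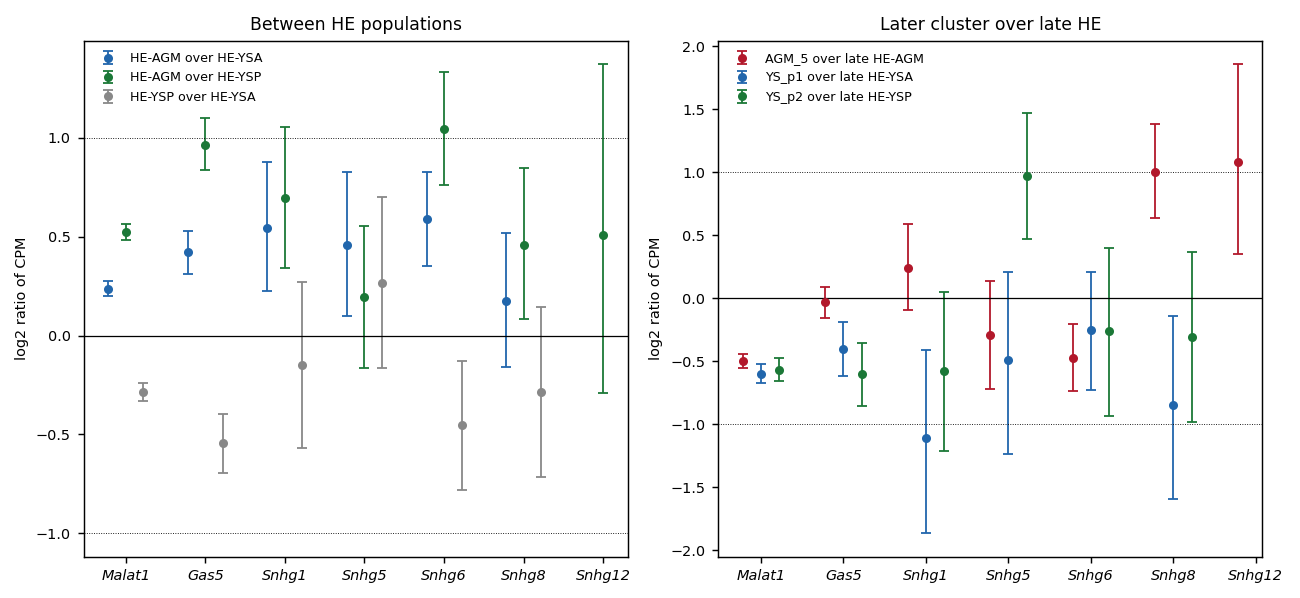
Log2 ratio of CPM with 95% counting intervals for the members with a mean of at least 10 CPM, between HE populations (left) and from late HE to the following cluster (right). The dotted lines mark 2-fold. On the left, Snhg6 over HE-YSP is at 1.04, and on the right Malat1 lies between -0.60 and -0.49 in all 3 arms, while Snhg8 and Snhg12 are just above 1 for AGM_5.

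The ratio between tissues moved with the annotated length of the counted transcripts, while the length of the cDNA itself was not measured. Over all genes the median log2 ratio of HE-AGM over YS HE was -0.17 for genes whose counted transcripts averaged up to 600 nt, -0.34 from 600 to 1000 nt, -0.21 from 1000 to 2000 nt, 0.68 from 2000 to 4000 nt and 1.27 above 4000 nt. The members with more than 100 counts were short as counted, at 555 nt for Snhg6, 604 nt for Malat1, 660 nt for Gas5, 837 nt for Snhg12, 970 nt for Snhg8, 1087 nt for Snhg1 and 1402 nt for Snhg5. By these counted lengths, their ratios were above the median of their class. The main Malat1 transcript is 6983 nt in the reference annotation, and the class above 4000 nt has the median of 1.27. The part of length in the ratios was not tested. Processed pseudogenes took 16.6% of all HE-AGM reads, and 24.8% and 25.2% of those of HE-YSA and HE-YSP. With those, mitochondrial and ribosomal protein transcripts left out of the total, the Gas5 ratio to HE-YSP was 0.82, and the part of composition in the ratios was not tested further.

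Snhg6 was recorded in a larger share of HE-AGM cells than of YS HE cells. Of 49 HE-AGM cells, 44 held at least 1 count, as did 27 of 52 cells in HE-YSA and 24 of 49 in HE-YSP. All 20 late HE-AGM cells held it, at 70.9 CPM in the lowest, 154.7 in the median and 519.8 in the highest cell. With every cell thinned to 28000 counts the shares were 89.8%, 63.6% and 62.5%, and 0, 19 and 17 shallower cells were left out. With levels this low, a cell without a count does not show that the RNA was absent.

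The summed Snhg6 level was 136.2 CPM in early HE-AGM (120.2 to 153.6), 193.5 in late HE-AGM (171.0 to 218.0) and 139.8 in AGM_5 (121.5 to 160.0). It was 103.5 and 108.9 CPM in early and late HE-YSA, 91.4 in YS_p1, 97.5 and 57.3 in early and late HE-YSP, and 47.8 in YS_p2 (33.3 to 66.5). Late over early was 0.51 (0.26 to 0.76) in HE-AGM and -0.77 (-1.32 to -0.24) in HE-YSP, and each kept its sign in the 3 runs. By run it was 0.33, 0.60 and 0.67 in HE-AGM and -0.24, -0.13 and -1.73 in HE-YSP. Run 1 held the widest HE-AGM to HE-YSP ratio, 1.78, beside 0.72 and 0.76 in the others.

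Snhg8, the host of an H/ACA box snoRNA, was highest in AGM_5. It stood at 128.5 CPM there (111.1 to 147.9), with cells at 0, 115.1 and 334.4 CPM as lowest, median and highest, and 19 of 21 cells held at least 1 count. Late HE-AGM had 64.0 CPM (51.4 to 78.8), with cells at 0, 35.8 and 231.0 and 12 of 20 cells with a count. The other clusters ran from 35.0 CPM in YS_p1 to 67.1 in early HE-AGM, and their single cells overlapped those of AGM_5. The AGM_5 ratio over late HE-AGM was 1.01 (0.64 to 1.38), with 0.71, 1.62 and 0.91 by run. YS_p1 lay below late HE-YSA by -0.84 (-1.60 to -0.14), and YS_p2 over late HE-YSP was at -0.30 (-0.98 to 0.36).

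Snhg12 was rare, with 133 counts in all, and 53 of them fell in AGM_5. Its level was 35.1 CPM there (26.3 to 45.9), with 8 of 21 cells at 1 count or more and a highest cell of 157.9 CPM. Late HE-AGM followed at 16.5 CPM and early HE-AGM at 14.4, with overlapping intervals. The ratio of AGM_5 over late HE-AGM was 1.09 (0.35 to 1.86), with 0.69, 2.60 and 0.86 by run. The YS clusters ran from 1.19 CPM in early HE-YSA to 12.9 in early HE-YSP, and HE-YSA as a whole held 8 counts. Snhg8 and Snhg12 were the 2 of 7 members past 2-fold at this step, beside 22.7% of all genes in either direction.

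Snhg1, which hosts several C/D box snoRNAs, followed the AGM order with 79.4 CPM in early HE-AGM (67.4 to 93.0), 92.8 in late HE-AGM (77.5 to 110.2) and 110.0 in AGM_5 (93.9 to 128.0). In the YS it was higher in both late HE clusters, at 72.3 CPM in late against 40.5 in early HE-YSA and 73.1 in late against 32.7 in early HE-YSP. YS_p1 had 33.5 CPM and YS_p2 49.2. Single cells ran from 0 to 720.6 CPM, the highest a late HE-YSA cell, and the groups overlapped.

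The late over early ratio of Snhg1 was 1.16 (0.48 to 1.85) in HE-YSP, with 1.76, 0.38 and 0.97 by run, and 0.84 (0.24 to 1.47) in HE-YSA, with 1.19, 0.94 and 0.52. It was 0.22 (-0.12 to 0.57) in HE-AGM. Late HE-AGM cells are all of prefix GL34, and early HE-AGM cells are of mixed prefix. Within GL34, Snhg1 was 62.8 CPM (50.9 to 76.6) in early and 92.8 (77.5 to 110.2) in late HE-AGM. The part of the cDNA set in this ratio was not tested. In HE-YSP Snhg1 was the 1 of 7 members past 2-fold, beside 28.9% of all genes. No member passed 2-fold in HE-YSA (24% of genes) or HE-AGM (21.6%). The same RNA was lower in YS_p1 than in late HE-YSA by -1.11 (-1.86 to -0.41), 1 of 6 members past 2-fold beside 28.5% of genes.

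All 6 members with a mean of at least 10 CPM had a negative ratio of YS_p1 over late HE-YSA, and 4 of the 6 intervals lay below 0. Snhg5, at -0.49 (-1.23 to 0.21), and Snhg6, at -0.25 (-0.73 to 0.21), were within counting error of no difference. The median was -0.54, beside 0.03 over all genes, of which 51.7% were higher in YS_p1. In YS_p2 over late HE-YSP, 5 of 6 ratios were negative, of which those of Malat1 and Gas5 had an interval below 0. The median was -0.43 beside 0.01 over all genes, of which 50.9% were higher, and no member passed 2-fold, where 23.8% of genes did. In AGM_5 against late HE-AGM, 3 of 7 were higher and 4 lower, beside 46.5% of all genes higher.

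Snhg5 was the exception in YS_p2. It stood at 131.1 CPM there (106.2 to 160.1), apart from every other cluster's interval, with cells at 0, 121.3 and 459.8 CPM as lowest, median and highest. 15 of 20 YS_p2 cells held at least 1 count, and 6 of 17 YS_p1 cells did, where the summed level was 38.1 CPM (24.6 to 56.2) and the highest cell 161.7. The 6 HE clusters ran from 39.4 CPM in early HE-YSA to 71.2 in late HE-AGM, and AGM_5 had 58.3. Cells of YS_p2 overlapped those of the other clusters at the low end, and the 2 highest of all cells were in YS_p2.

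The ratio of YS_p2 over YS_p1 for Snhg5 was 1.78 (1.14 to 2.48), with 1.94 in run 1 and 1.00 in run 3, and in run 2 YS_p1 held no Snhg5 count. It was the 1 of 6 members past 2-fold between the 2 progenitor clusters, beside 23.2% of genes. The ratio over late HE-YSP was 0.97 (0.48 to 1.47), with 0.93, 1.16 and 0.82 by run. Within E10.5 the progenitor ratio was 1.65 (0.71 to 2.62), from 6 and 15 cells, and within E9.5 it was 1.35 (0.21 to 2.73), from 9 and 2 cells. Malat1, Gas5 and Snhg6 were lower in YS_p2 than in YS_p1, by -0.58 (-0.68 to -0.48), -0.41 (-0.68 to -0.15) and -0.94 (-1.58 to -0.31).

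Neat1 gave 11 counts in 4 of 208 cells. 9 of them were in 2 early HE-AGM cells, the higher at 189 CPM, and early HE-YSA and YS_p2 had 1 each. The other 6 clusters had none, which allows up to 2.0 CPM in AGM_5, where the total was largest, and up to 4.6 in YS_p1. Its mean was under 10 CPM in every comparison, so Neat1 entered no count of members past 2-fold. With late HE-AGM set to the floor of 3 counts, Neat1 was 2.15-fold lower there than in early HE-AGM, a value that rests on the 2 cells. On the log2 scale this was -1.11, and the counting interval reached up to -0.50. Of the early HE-AGM counts, 7 were in cells of prefix GL43 and 2 in cells of GL34, the prefix of all late HE-AGM cells. The part of the cDNA set in this ratio was not tested.

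Embryonic day, read from the library names of YS cells, moved with Malat1 and Snhg5. Malat1 in HE-YSA was 2695 CPM at E9.5 (14 cells, from 733 through a median of 2170 to 11961) and 5485 CPM at E10.5 (35 cells, from 1178 through 4769 to 16371). In HE-YSP it was 2905 CPM at E9, 3071 at E9.5 and 5042 at E10.5, with 16, 13 and 20 cells. E10.5 over the earlier days was 0.86 (0.78 to 0.94) in HE-YSA and 0.76 (0.69 to 0.83) in HE-YSP, and it was above 0 in each of the 4 YS HE clusters, from 0.53 in late HE-YSP to 0.98 in late HE-YSA. In YS_p2 it was -0.01 (-0.17 to 0.14). The 2 HE-YSA cells of E9, at 4240 and 9175 CPM, stood apart from this order. Within YS HE the cells of E10.5 were thus the higher ones, although the ranges overlapped.

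Snhg5 went the other way in HE-YSP, with 108.1 CPM at E9 (80.0 to 142.9), 75.3 at E9.5 (50.5 to 108.2) and 20.4 at E10.5 (11.9 to 32.7). The E10.5 ratio over earlier days was -2.19 (-3.04 to -1.42), and it was -2.88 within the early and -1.49 within the late HE-YSP cluster. In HE-YSA it was -0.74 (-1.37 to -0.07), and in YS_p2 -0.51 (-1.24 to 0.17). Snhg6 was higher at E10.5 in HE-YSP, by 1.18 (0.63 to 1.75), and was at -0.37 (-0.80 to 0.08) in HE-YSA.

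**Figure D3:**
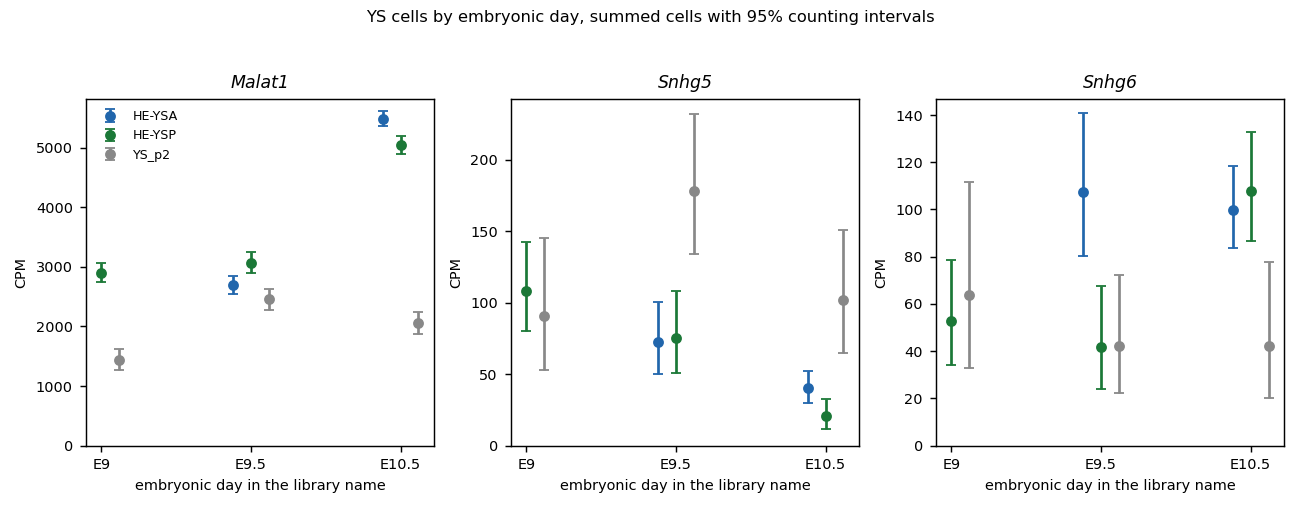
Summed CPM of Malat1, Snhg5 and Snhg6 with 95% counting intervals in HE-YSA, HE-YSP and YS_p2 by embryonic day, for days with at least 5 cells. Malat1 is at 2905 and 3071 CPM at E9 and E9.5 in HE-YSP and at 5042 at E10.5, Snhg5 there goes from 108.1 to 20.4 CPM, and YS_p2 follows neither order.

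Most Malat1 reads were given to short annotated isoforms. Malat1-216 (596 nt) took 52.1% of the gene's total in HE-AGM, with 48.6% and 50.8% for HE-YSA and HE-YSP. Malat1-203 (485 nt) took 36.0%, 27.9% and 27.6%, and Malat1-221 (416 nt) took 7.15%, 13.7% and 12.9%. Transcripts over 1000 nt took 2.56%, 3.35% and 3.15%, although the main Malat1 transcript is 6983 nt in the reference annotation. Malat1-203 is spliced and lies at the 5′ end of the gene.

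In GENCODE M21 (GRCm38, chromosome 19, minus strand), Malat1-203 joins an exon of 434 nt at chr19:5802238-5802671 to an exon of 51 nt at chr19:5801916-5801966, across an intron of 271 nt with GT and AG ends. It covers bases 2 to 757 of Malat1-201. The junction is printed because this isoform's share differed most between AGM and YS. Lower case is the last 50 bases of the first exon, and capitals are the whole second exon.
Malat1-203: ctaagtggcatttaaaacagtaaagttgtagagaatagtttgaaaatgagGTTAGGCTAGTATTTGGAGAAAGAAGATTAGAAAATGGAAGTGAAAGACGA

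The Malat1-203 share was 36.7% in AGM_5, 27.6% in YS_p1 and 26.6% in YS_p2, so all 3 AGM clusters lay above all 6 YS clusters, and Malat1-221 had the opposite order, with 5.89%, 12.7% and 12.5% in these clusters. By run, Malat1-203 was 29.6%, 36.1% and 41.2% in HE-AGM beside 25.2%, 28.1% and 29.9% in YS HE. Single HE-AGM cells had 13.7% to 53.7% of Malat1-203, with a median of 35.0%, and HE-YSA cells 10.4% to 51.6%, with a median of 26.1%. The ranges overlapped widely.

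The cDNA set moved with these shares inside the AGM. Malat1-221 took 6.38% (5.92 to 6.87) in 23 early HE-AGM cells of prefix GL34 and 14.4% (13.01 to 15.86) in 5 early HE-AGM cells of prefix GL43, beside 13.2% (12.7 to 13.7) in 100 YS HE cells of GL69. Malat1-203 took 37.2% (36.3 to 38.2), 33.4% (31.5 to 35.3) and 27.6% (26.9 to 28.4) in the same cells. In 1 early HE-YSA cell of GL43 the shares were 20.8% and 32.1%. The Malat1 level was 6750 CPM (6621 to 6881) in GL34 and 6684 CPM (6419 to 6957) in GL43, with overlapping intervals. Other members differed between the sets. Snhg1 was 62.8 CPM (50.9 to 76.6) in GL34 and 136.6 (101.0 to 180.6) in GL43, and Snhg8 56.3 (45.1 to 69.4) and 119.9 (86.7 to 161.4). Snhg6 was 150.7 CPM (132.0 to 171.4) in GL34 and 86.4 (58.7 to 122.6) in GL43. The part of the cDNA set in the differences between tissues was not tested. In YS HE, Malat1-221 was 12.8% at E9, 11.2% at E9.5 and 13.7% at E10.5.

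**Figure D4:**
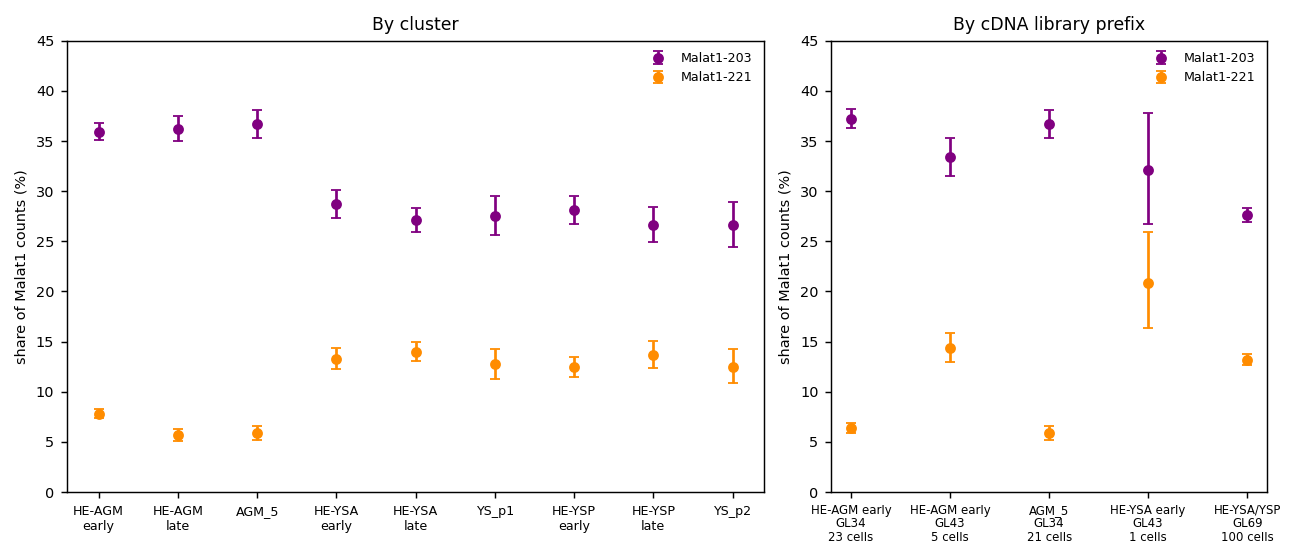
Share of Malat1 counts (percent, with 95% exact binomial intervals) given to Malat1-203 and Malat1-221, by cluster (left) and by the prefix of the cDNA library name (right). AGM and YS clusters separate on the left, and on the right the 5 early HE-AGM cells of prefix GL43 have 14.4% of Malat1-221, close to the 13.2% of YS HE.

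A difference of more than 0.1 in an isoform's fraction was found for no member with at least 100 counts in both groups. This was 0 of 5 members between HE-AGM and HE-YSA, where 54.4% of 2031 genes with such counts passed, 0 of 3 between HE-AGM and HE-YSP, where 50.9% of 1795 passed, and 0 of 3 between the YS populations, where 14.5% of 1715 passed. Gas5 could not pass, since its top isoform held 7.86%, 8.72% and 7.20% in HE-AGM, HE-YSA and HE-YSP. The top Snhg6 isoform held 7.11%, 11.8% and 13.7%, which left little room. The members' 0 can therefore not be compared with the shares over all genes. The largest Malat1 differences, in Malat1-203, were 0.082 and 0.085 against HE-YSA and HE-YSP, and 0.023 between the YS populations. Members under 100 counts in a group were not counted, and some of their differences were larger. For Snhg8 it was 0.147 for HE-AGM against HE-YSP and 0.111 for HE-YSP against HE-YSA. For Snhg5 it was 0.110 between HE-AGM and HE-YSA and 0.1003 between HE-AGM and HE-YSP. For Snhg12, with 8 to 51 counts, it was 0.155, 0.102 and 0.192 in the 3 comparisons. Most transcript values of the snoRNA hosts were below 1 count in a cell, which is 91.3% of the Gas5 values above 0, since NanoCount divides a read among the transcripts it aligns to. Summed over a gene, 98.3% to 100% of the values were whole within 0.01.

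Gas5 counts were spread over 206 transcripts in HE-AGM, and the top 3 took 19.4%. Transcripts annotated as retained intron took 12.99% (11.6 to 14.4) for HE-AGM, 14.5% (12.4 to 16.8) for HE-YSA, 14.9% (12.15 to 18.02) for HE-YSP and 13.1% for AGM_5. In YS_p1 this was 22.7% (17.8 to 28.4) and in YS_p2 29.4% (23.5 to 36.0). For Snhg5 the retained-intron share was 66.7% (60.0 to 72.9) for HE-AGM, 76.5% (66.6 to 84.9) for HE-YSA, 77.7% (68.2 to 85.8) for HE-YSP and 88.9% (80.4 to 94.1) in YS_p2. For Gas5 the YS_p2 share thus lay above the intervals of all 3 HE populations. For Snhg5 it lay above the HE-AGM interval and its own interval overlapped those of the YS populations. The Snhg5 share was 56.7% (47.8 to 66.4) in early HE-AGM and 78.5% (69.4 to 86.4) in late HE-AGM, whose interval overlapped that of YS_p2. In YS_p1, with 25 counts, it was 83.3% (63.9 to 95.5).

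Snhg8 was mostly 1 transcript. Snhg8-201 took 88.1% in HE-AGM, 84.5% in HE-YSA, 73.4% in HE-YSP and 98.2% in AGM_5. Snhg1 was divided between Snhg1-211, with 36.1%, 35.9% and 44.6% in the 3 HE populations, and Snhg1-207, with 33.7%, 42.6% and 40.1%. Snhg6 had 13 transcripts of 5% or more in each HE population.

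Related genes were set beside the members for HE-AGM over all YS HE cells. Of the members, 7 of 7 with at least 10 CPM were higher, with a median log2 ratio of 0.61, and 1 passed 2-fold, Snhg12 at 1.08 (0.37 to 1.82). Over all 8632 genes 57.1% were higher, 27.9% passed 2-fold upwards and 13.1% downwards, and the median was 0.23. Of other noncoding snoRNA hosts, 5 of 9 were higher and 1 passed 2-fold, with a median of 0.29. Snhg9 stood at 3.34 and Zfas1 at 0.62, and Snhg4 and Snhg17 at -0.94 and -0.89.

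Of proteins that assemble snoRNAs, 5 of 7 were higher, 2 past 2-fold and 1 past 2-fold lower, with a median of 0.44. Snu13, of the C/D box particle, stood at 1.44 and Gar1, of the H/ACA box particle, at 1.05, while Dkc1, the pseudouridine synthase, stood at -1.26 and Nhp2 at -0.39. Of 13 coding TOP genes 8 were higher, 4 past 2-fold and 1 past 2-fold lower, with a median of 0.36. Pabpc1, which binds poly(A) tails, stood at 2.52 and Eif3h at 1.91, while the elongation factor subunits Eef1g and Eef1d stood at -2.02 and -0.68.

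Nonsense-mediated decay factors were higher in 8 of 8, 6 of them past 2-fold, with a median of 1.27. Upf1, the helicase of this pathway, stood at 4.04 and Upf3b at 2.05, with Smg5 and Smg1 lowest at 0.54 and 0.65. Of paraspeckle proteins 4 of 7 were higher and 2 past 2-fold, with a median of 0.46. Nono, which binds Neat1 in paraspeckles, stood at 1.05, and Tardbp and Hnrnph3 at -0.08 and -0.28. Nuclear speckle proteins were higher in 4 of 8, all 4 past 2-fold, with 1 past 2-fold lower and a median of 0.59. Srsf2 stood at 1.40 and Son at 1.36, and Srrm2 and Pnn at -0.72 and -2.16. Other long noncoding RNAs were higher in 2 of 4, with a median of 0.30, from Firre at 1.03, the 1 past 2-fold, and Tug1 at 0.78 to Oip5os1 at -0.18 and Meg3 at -0.55. Long transcripts were higher in HE-AGM in general, as given above, and the lists were not matched on length.

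The genes whose levels ran most like each member over the 9 clusters were found by Pearson's r of log2(CPM + 1) among 3264 genes, as a description over 9 points that share depth and tissue. Malat1 ran with the endothelial or adhesion genes Mfge8 (0.97), Nrp1 (0.96) and Tjp1 (0.96). Gas5 ran with Rps24 (0.95), a ribosomal protein gene, Sf1 (0.94) and Serf1 (0.94). Snhg1 ran with Gm6204 (0.95), Tnpo1 (0.93) and Clint1 (0.93), and Snhg5 with Tssc4, Ccne1 and Hnrnpm (each 0.92). Snhg6 ran with Sh3bgrl (0.93), Flna (0.92) and ENSMUSG00000121783 (0.91), and Snhg8 with Nlrc3 (0.92), Rps13-ps1 (0.89) and 2410006H16Rik (0.89). Snhg12 ran with Hcfc1 (0.97), Rbbp4 (0.95) and Lmo2 (0.94). For Neat1, with 11 counts, the 3 were Lrrc41, Copa and mt-Rnr2, at 0.88, 0.87 and 0.85.

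Among the members, Snhg1 and Snhg8 had an r of 0.88, Gas5 and Snhg1 0.80, Gas5 and Snhg8 0.77, and Gas5 and Snhg6 0.75, over the 9 clusters. Malat1 and Gas5 had 0.35, and Malat1 and Snhg5 -0.54. Across single cells, Spearman's rho of Malat1 and Gas5 was -0.49 in 49 HE-AGM cells, -0.05 in 52 HE-YSA cells and 0.07 in 49 HE-YSP cells, and that of Malat1 and the total count was -0.40 in HE-AGM. These values share each cell's total as a denominator.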

How the data were processed

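The authors sequenced Smart-seq2 cDNA of single cells on a nanopore instrument, took off adapters and chimeras, and mapped reads to the GENCODE transcriptome with Minimap2 2.26 (at most 10 alignments a read). NanoCount then gave the abundance of each transcript. The deposited estimated counts are per transcript and cell, not normalized, and need not be whole. The deposited TPM is the same estimate after division by the cell's total and was not used further. Cells under 17595 counts (1 scaled median absolute deviation below the median) were left out. Counts were summed by symbol and labelled cluster. Ratios of summed CPM have conditional binomial 95% intervals, levels exact Poisson and shares exact binomial (Clopper-Pearson) ones on rounded counts, for counting error only. A group at 0 was set to 3 counts. A member counted as past 2-fold where the mean CPM was at least 10. With 1 sample per group no test or p-value was computed. The summing and calling steps were tested on simulated counts. All members were named, isoforms of at least 5% in a cluster were eligible, and for each list the 2 highest and 2 lowest genes were named, apart from 1 gene that is not reported here. The members and lists were chosen with earlier results of these data known. Promoters (RefSeq, GRCm38.p6) and the Malat1 junction (GENCODE M21) are of another build than the files' GENCODE release, and no coordinate was converted. Tools were Python 3.11.15 with pandas 2.3.3, numpy 2.4.6, matplotlib 3.10.9 and scipy 1.17.1, and DESeq2 1.42.0 in R 4.3.3 for the size factors of an alternative.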

Additional observations from a re-analysis of the deposited data

Results flagged for a closer look

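Snhg6 changed in opposite directions with stage label in 2 HE populations. Late over early was 0.51 on the log2 scale in HE-AGM and -0.77 in HE-YSP, with the same sign as given in each of the 3 nanopore runs. In HE-YSP the runs gave -0.24, -0.13 and -1.73. Of early HE-YSP cells, 13 were of E10.5 and 12 of earlier days, and of late ones 7 and 17. Within E10.5 Snhg6 was at 117.7 CPM in early and 91.9 in late HE-YSP, and on earlier days at 66.1 and 35.6. The part of embryonic day in this ratio was not tested. Snhg8 moved in opposite directions from late HE to the following cluster. AGM_5 over late HE-AGM was 1.01, and YS_p1 over late HE-YSA was -0.84, again with the same sign in each run. These differences were not tested, because each cluster counts as 1 sample.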

How the results depend on the processing

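Across 18 alternative settings, 676 values of 43 log2 ratios were recomputed. All 43 had a mean of at least 10 CPM. They were all such ratios between HE populations and, at the other steps, those past 2-fold or with an interval excluding 0. Ratios near 0 at those steps were thus left out beforehand. Of the values, 658 kept the sign and 520 stayed inside the reported counting interval. No ratio past 2-fold changed sign. Malat1 kept its sign at each step in all 14 alternatives run for it, and Gas5 in HE-AGM over HE-YSP ran from 0.75 to 1.85. Malat1 in HE-AGM over HE-YSA ran from -0.12 (late clusters only) to 0.61, and Snhg5 in YS_p2 over YS_p1 from 1.00 to 3.28. Counts of members past 2-fold are small and moved with most settings.

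For HE-AGM over HE-YSA (0 as reported), the count was 2 without the limit on mean CPM (Neat1 and Snhg12), and 1 each with mitochondrial, ribosomal protein and processed pseudogene transcripts left out of the total, in run 3 and with late clusters only (Snhg12), and in run 1 and with transcript values below 1 set to 0 (Snhg6). For HE-AGM over HE-YSP (1 as reported, Snhg6), it was 0 with the limit on cell totals set on log values, the reduced total, totals from 30000 to 60000 and run 2, and 2 with DESeq2 size factors, run 1 and values below 1 set to 0 (Gas5 and Snhg6) and with early clusters only (Gas5 and Snhg1). For HE-YSP over HE-YSA (0), it was 1 without the CPM limit and with the reduced total (Snhg12), and 1 with values below 1 set to 0 (Snhg6).

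For late over early HE-AGM (0), the count was 1 without the CPM limit (Neat1), 1 in run 1 (Snhg5) and 3 in run 2 (Malat1, Snhg1 and Snhg12). For HE-YSA (0), it was 1 without the CPM limit (Snhg12), with the mean of per-cell CPM and DESeq2 size factors (Snhg1), and with cells thinned to 28000 counts and run 3 (Snhg5), 3 in run 1 (Snhg1, Snhg6 and Snhg8) and 2 with values below 1 set to 0 (Snhg5 and Snhg6). For HE-YSP (1, Snhg1), it was 2 thinned (Snhg8 and Snhg12, with Snhg1 at 0.39), 0 with totals from 30000 to 60000, and 2 in run 1 (with Snhg5) and with values below 1 set to 0 (with Gas5).

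For AGM_5 over late HE-AGM (2), the count was 0 thinned and in run 3, and 1 in run 1 (Snhg6). Thinned, Snhg8 was at 0.89 and Snhg12 at 0.93. For YS_p1 over late HE-YSA (1, Snhg1), it was 2 without the CPM limit (with Snhg12) and thinned (with Snhg5), and 0 with the mean of per-cell CPM, DESeq2 size factors, totals from 30000 to 60000 and values below 1 set to 0. For YS_p2 over late HE-YSP (0), it was 1 without the CPM limit and thinned (Snhg12), 1 with the mean of per-cell CPM and DESeq2 size factors (Snhg5), 2 in run 1, 4 in run 2 and 3 with values below 1 set to 0. For YS_p2 over YS_p1 (1, Snhg5), it was 2 with that limit on log values and thinned (with Snhg1) and with totals from 30000 to 60000 (with Snhg6), and 3 in each run alone.

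The count stayed at 1 with another member for HE-AGM over HE-YSP in run 3 (Snhg1) and with YS cells of E10.5 only (Snhg5), for late over early HE-YSP in run 2 (Gas5) and run 3 (Snhg6), and for YS_p1 over late HE-YSA in run 2 (Malat1) and run 3 (Snhg6).

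For isoforms (0 in each comparison), Malat1 passed 0.1 in 1 case each for HE-AGM against HE-YSA and HE-YSP with genes thinned to 50 counts and in run 3, Snhg8 in 1 case with the mean of per-cell fractions against HE-YSA, and Snhg6 in 1 case between the YS populations thinned to 50 counts. The causes of these shifts were not tested. No paired analysis was possible because the result comes from no test. Depth limits Neat1 and Snhg12 most, and 13 shallow cells were left out.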
